A study of Mus musculus with 12 samples.

Results

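The metabotropic glutamate receptor genes described here are Grm2, Grm3, Grm4, Grm5, Grm7 and Grm8, taken by symbol from the deposited table of gene counts. They are 6 of its 24421 genes, and each was counted deeply enough for testing. Striatal RNA came from 12 libraries of male mice of the inbred strain C57BL/6J, known for its high voluntary ethanol intake. In the varenicline group (6 libraries) mice received varenicline at 2 mg/kg, a smoking cessation drug that is a partial agonist at nicotinic acetylcholine receptors, and in the saline group (6 libraries) they received saline at the same time. All mice drank 20% ethanol in Drinking-in-the-Dark, a limited-access test, in sessions of 2 h that began 3 h into the dark phase. There were 3 cycles of 2 days, each with an injection 30 min before the second day's drinking. That injection was saline for every mouse in the first cycle and the assigned agent in the last 2, and striatum was taken after the final session. Libraries are numbered within each group by accession, which pairs none of them. The labels give neither the age of the mice nor how many mice went into a library, so the p-values cover only the spread among these libraries, which may be technical. The comparison is of varenicline with saline in mice that all drank ethanol.

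Metabotropic glutamate receptors are G protein-coupled receptors with a large extracellular glutamate-binding domain. Group I, to which mGlu5 belongs, couples to Gq and phospholipase C and sits mostly on the postsynaptic side. Groups II (mGlu2 and mGlu3) and III (mGlu4, mGlu6, mGlu7 and mGlu8) couple to Gi/o, lower cyclic AMP, and act largely as brakes on transmitter release. In the striatum, mGlu5 is abundant on projection neurons, while presynaptic receptors act on the terminals of cortical and thalamic axons. Block of mGlu5 lowers ethanol intake in rodents, and a loss-of-function change in Grm2 goes with higher intake in rats.

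Library totals ran from 13340420 to 24522349 counts with varenicline and from 14040416 to 27917715 with saline. The tissue label fitted its markers: 12 of 12 striatal projection neuron markers were counted in every library, with summed levels of 7448 to 12215 CPM (counts relative to the library total after TMM scaling) with varenicline and 6915 to 10792 CPM with saline. A list of 12 cortical excitatory neuron markers moved with the groups. All 12 were lower with varenicline, 10 of them at an unadjusted edgeR p under 0.05, and none was at 0 in any library. Their summed level was 237 to 1184 CPM with varenicline and 781 to 1350 CPM with saline. The library varenicline 6 stood apart from its group, at 1184 CPM where the other 5 varenicline libraries reached at most 561 CPM. A list of 9 septal and pallidal markers was higher with varenicline in all 9 genes, 8 of them at an unadjusted edgeR p under 0.05. Summed levels were 52.4 to 137 CPM with varenicline and 43.3 to 65.6 CPM with saline. The septal score, the mean log2 CPM of these markers, was 3.56 in varenicline 1 and 3.47 in varenicline 3. It was 2.28 to 2.51 in the other varenicline libraries and 1.79 to 2.44 with saline. For each receptor the log2 fold change is therefore given with and without varenicline 6. In bulk RNA, fewer cells of a type and less RNA per cell cannot be told apart.

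Grm5 was the most abundant of these receptors in the striatum and Grm2 the least. Levels were set between genes per kilobase of exon, from CPM divided by the exon length in the count table. On that scale Grm5 averaged 38.9 ± 5.93 with varenicline and 32.1 ± 3.51 with saline (SD, n = 6 each). Grm3 came next, at 25.9 ± 2.63 with varenicline and 25.5 ± 1.73 with saline. Grm5 lay above Grm3 in 12 of 12 libraries, and Grm3 above Grm4 likewise. Grm4 (18.9 ± 2.29 and 17.8 ± 3.80) and Grm7 (17.0 ± 1.45 and 16.2 ± 1.01, varenicline and saline) did not differ beyond their spread, with Grm4 the higher in 7 of 12 libraries. Grm8 was scarce, at 3.65 ± 1.11 with varenicline and 4.08 ± 0.455 with saline, and lay below Grm7 in all 12 libraries. Grm2 averaged 1.69 ± 1.41 with varenicline and 3.09 ± 1.45 with saline, and was below Grm8 in 10 of 12 libraries. Of the summed length-scaled level of the 6 transcripts, Grm5 made up 36.5% ± 3.08 with varenicline and 32.5% ± 2.94 with saline. Grm2 made up 1.68% ± 1.60 with varenicline and 3.19% ± 1.62 with saline.

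**Figure D1:**
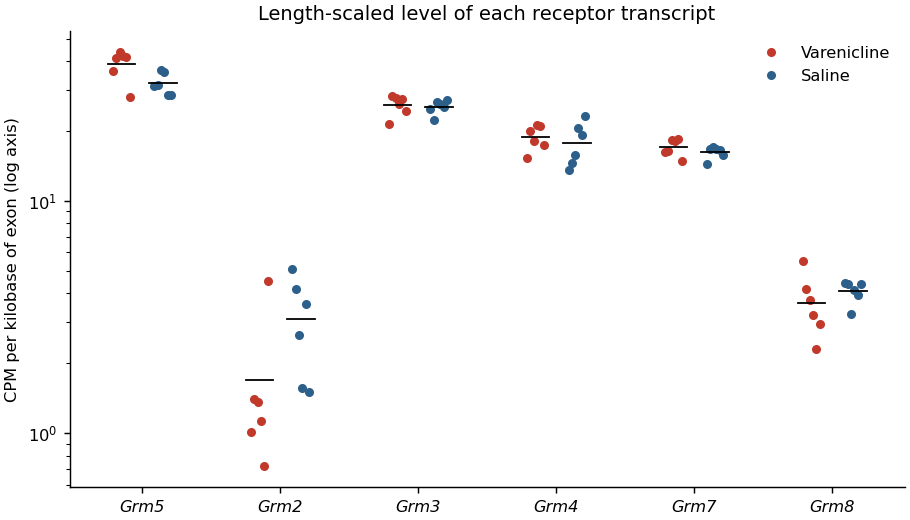
Length-scaled level of 6 metabotropic glutamate receptor transcripts, in CPM per kilobase of exon on a log axis. Each point is a library, 6 with varenicline (left, red) and 6 with saline (right, blue), and lines mark group means; Grm5 is highest in every library and Grm2 has the widest spread.

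Comparing varenicline with saline, Grm5 was on the higher side and Grm2 on the lower side, and neither passed the threshold of 0.05 for the adjusted p when all 12 libraries were used. In edgeR's quasi-likelihood test with Benjamini-Hochberg adjustment over 15148 genes, 0 of the 6 receptors were called, where 0.00% of all genes tested were. At an unadjusted p under 0.05 there was 1 of 6, Grm5, against 16.9% of all genes in either direction. DESeq2 called 0 of 6, against 3.10% of the genes to which it gave an adjusted p. The groups overlapped for all 6 receptors, and 0.759% of all genes tested had groups that did not overlap.

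**Figure D2:**
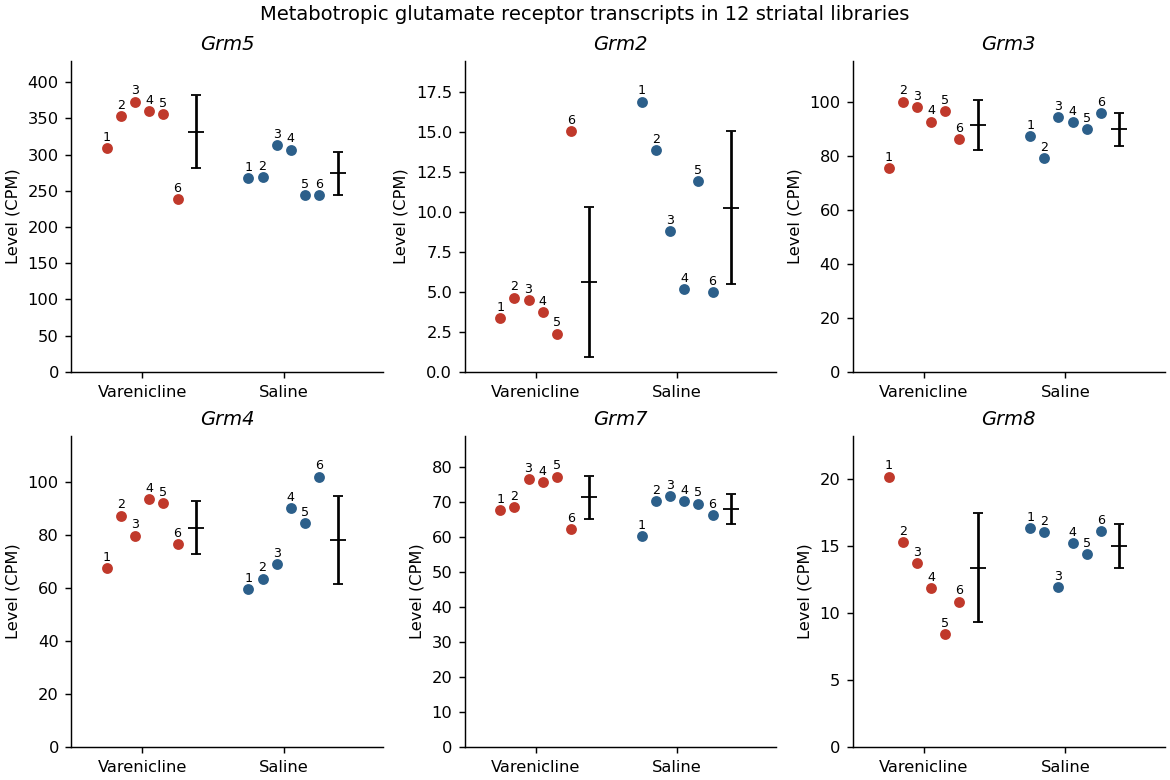
Level in CPM of each receptor transcript in 6 varenicline libraries (left, red) and 6 saline libraries (right, blue); numbers are replicate numbers and black bars are the mean and SD. Varenicline 6 lies at 15.1 CPM for Grm2 and 238 CPM for Grm5, apart from the other 5 varenicline libraries.

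Grm5 (ENSMUSG00000049583, mm10 chromosome 7, 87584168 to 88135063, plus strand, 11 exons) encodes mGlu5, the Gq-coupled receptor that Homer and Shank proteins anchor at the postsynaptic density. Its level was 238 CPM in the lowest, 354 CPM at the median and 373 CPM in the highest varenicline library, against 244, 268 and 313 CPM in the saline libraries. Of the varenicline libraries 4 lay above every saline library, varenicline 1 lay within the saline range at 309 CPM, and varenicline 6 lay below every saline library. The group means were 331 ± 50.6 CPM with varenicline and 274 ± 29.9 CPM with saline (SD, n = 6 each). The log2 fold change was 0.27 (SE 0.098, 95% interval 0.063 to 0.48, unadjusted p = 0.0142, edgeR adjusted p = 0.192). Genes higher at an unadjusted p under 0.05 made up 7.26% of all tested. Without varenicline 6 the log2 fold change of Grm5 was 0.36 (SE 0.073) with an edgeR adjusted p of 0.00564. With the cortical marker score (mean log2 CPM of the 12 cortical markers) as a covariate it was -0.0034 (SE 0.099, edgeR adjusted p = 0.9996). That value depended on varenicline 6, since without it the same fit gave 0.18 (SE 0.13, edgeR adjusted p = 0.637). Over all alternatives the adjusted p of Grm5 ran from 0.00564 to 0.9999.

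Grm2 (ENSMUSG00000023192, mm10 chromosome 9, 106644534 to 106656109, minus strand, 6 exons) encodes mGlu2, a presynaptic group II autoreceptor made by cortical pyramidal neurons among other cells. Its level was 2.39 CPM in the lowest, 4.13 CPM at the median and 15.1 CPM in the highest varenicline library, against 4.98, 10.4 and 16.9 CPM with saline. These values rest on 41 to 265 counts per varenicline library and 111 to 379 per saline library. Of the varenicline libraries 5 lay below every saline library, and varenicline 6 lay above 5 of the 6 saline libraries. The means were 5.62 ± 4.70 CPM with varenicline and 10.3 ± 4.81 CPM with saline (SD, n = 6 each). The log2 fold change was -0.86 (SE 0.41, 95% interval -1.72 to 0.0023, unadjusted p = 0.0505, edgeR adjusted p = 0.298). Without varenicline 6 the varenicline mean was 3.73 ± 0.917 CPM (SD, n = 5), the groups did not overlap, as for 7.43% of all genes, and the log2 fold change was -1.42 (SE 0.30, adjusted p = 0.00750 in edgeR).

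Within the saline group alone, Grm2 spread over a wide range that ran beside the cortical markers. Its level was 16.9 CPM in saline 1, 13.9 in saline 2 and 11.9 in saline 5, whose cortical scores were the highest of the group at 5.67, 5.48 and 5.43. It was 8.79 CPM in saline 3, with a score of 5.20. In saline 4 and 6 it was 5.20 and 4.98 CPM, with scores of 4.89 and 4.94. The order of the libraries by Grm2 was thus that of the cortical score but for saline 4 and 6. Varenicline 6, with 15.1 CPM of Grm2, had a score of 5.55, and the other 5 varenicline libraries, with at most 4.65 CPM, had scores of 2.80 to 4.38. With the cortical score as a covariate the log2 fold change of Grm2 was 0.10 (SE 0.34, edgeR adjusted p = 0.9994). The same fit without varenicline 6 gave -0.50 (SE 0.57, edgeR adjusted p = 0.770), on the other side of 0. Grm5 did not order the saline libraries in this way: its lowest saline levels, both 244 CPM, were in saline 5 and 6, with scores of 5.43 and 4.94. Among varenicline libraries its highest level, 373 CPM, was in varenicline 3, with the lowest score, and its lowest, 238 CPM, was in varenicline 6, with the highest. Over all alternatives the adjusted p of Grm2 ran from 0.00750 to 0.9999.

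**Figure D3:**
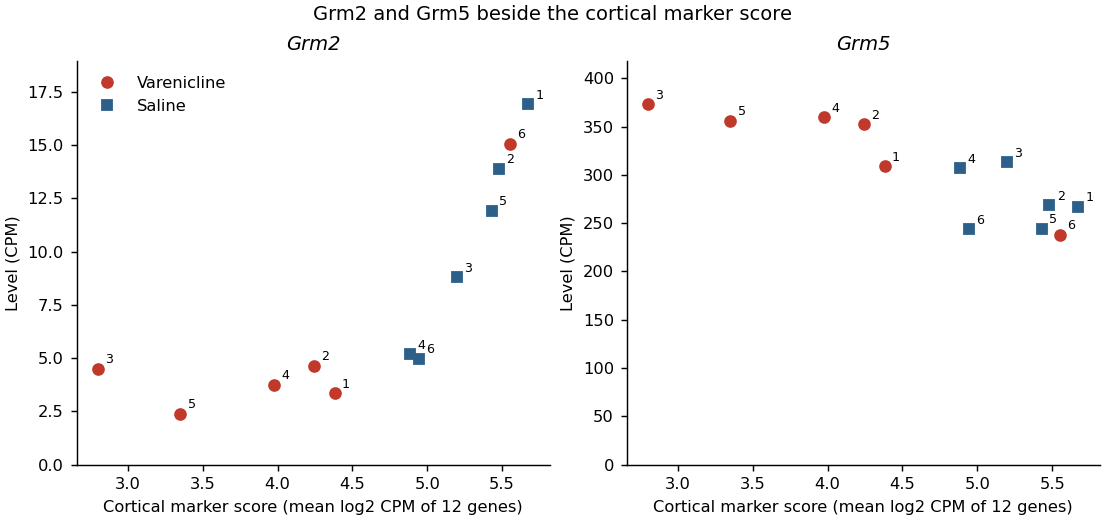
Level in CPM of Grm2 (left panel) and Grm5 (right panel) against the cortical marker score, the mean log2 CPM of 12 cortical excitatory neuron genes, in 6 varenicline libraries (red circles) and 6 saline libraries (blue squares), numbered by replicate. Varenicline 6, with a score of 5.55, lies within the saline range of Grm2 at 15.1 CPM and just below that of Grm5 at 238 CPM.

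The 250 bases upstream of the annotated start of Grm2 are shown beside those of Grm3, the other group II receptor, because both genes encode Gi/o-coupled receptors of one group while their spreads across these libraries differed. RefSeq sequence of GRCm38.p6 was used, and 4 of the 6 receptor genes (Grm2, Grm3, Grm7 and Grm8) had an entry. Capitals mark the GC box GGGCGG, searched on both strands (as GGGCGG and CCGCCC), and all else is in lower case. The Grm2 window is chr9:106656110-106656359 and the Grm3 window is chr5:9725353-9725602, each read 5′ to 3′ on the minus strand.
Grm2: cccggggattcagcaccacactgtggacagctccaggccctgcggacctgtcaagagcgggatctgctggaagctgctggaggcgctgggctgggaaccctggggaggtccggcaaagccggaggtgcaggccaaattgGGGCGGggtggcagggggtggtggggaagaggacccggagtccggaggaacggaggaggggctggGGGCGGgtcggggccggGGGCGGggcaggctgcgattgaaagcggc
Grm3: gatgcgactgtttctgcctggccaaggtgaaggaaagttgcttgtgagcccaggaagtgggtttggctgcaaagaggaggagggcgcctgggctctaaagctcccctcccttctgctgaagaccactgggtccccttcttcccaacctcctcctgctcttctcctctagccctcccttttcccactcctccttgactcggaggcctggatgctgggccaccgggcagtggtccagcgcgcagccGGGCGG
Grm2 held 3 GC boxes and 16 CpG dinucleotides in a window of 71.2% G and C, and Grm3 held 1 GC box and 8 CpG in 62.4% G and C. Grm7 and Grm8 held 1 GC box each. Of 32851 such windows in the table, 32.7% held at least 1 GC box and 8.47% held 3 or more. A match describes the letters only and does not show a bound site.

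Grm3 (ENSMUSG00000003974, mm10 chromosome 5, 9485236 to 9725352, minus strand, 6 exons) encodes mGlu3, a group II receptor of astrocytes and neurons that also responds to the peptide NAAG. Its level was 75.5 CPM in the lowest, 94.7 CPM at the median and 100.2 CPM in the highest varenicline library, against 79.2, 91.4 and 96.0 CPM in the saline libraries. The groups overlapped, with varenicline 1 below the saline range and 3 varenicline libraries above it. The log2 fold change was 0.02 (SE 0.068, 95% interval -0.12 to 0.17, edgeR adjusted p = 0.896), and its sign turned in 5 of 25 alternatives. Without varenicline 6 it was 0.049 (SE 0.070). Grm3 thus did not follow Grm2, although both belong to group II. Summed levels of 9 astrocyte markers were 1755 to 1987 CPM with varenicline and 1590 to 1792 CPM with saline, with 8 of the 9 higher. Their part in the level of Grm3 was not tested.

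The group III receptors did not pass in any fit. Grm4 (ENSMUSG00000063239, mm10 chromosome 17, 27422388 to 27503533, minus strand, 11 exons) encodes mGlu4, a presynaptic receptor of corticostriatal and striatopallidal synapses. It was at 67.3 CPM in the lowest, 83.4 CPM at the median and 93.4 CPM in the highest varenicline library, against 59.6, 76.6 and 102 CPM with saline. All varenicline libraries lay within the saline range, and Grm4 had the second widest relative spread among saline libraries after Grm2, with a coefficient of variation of 21.3% against 46.8% for Grm2. Its log2 fold change was 0.08 (SE 0.12, 95% interval -0.18 to 0.34, edgeR adjusted p = 0.790). Without varenicline 6 it was 0.11 (SE 0.13).

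Grm7 (ENSMUSG00000056755, mm10 chromosome 6, 110645598 to 111567230, plus strand, 10 exons) encodes mGlu7, a receptor of the presynaptic active zone with low affinity for glutamate. Its level was 62.1 CPM in the lowest, 72.0 CPM at the median and 77.1 CPM in the highest varenicline library, against 60.1, 69.7 and 71.5 CPM with saline. In 3 varenicline libraries Grm7 lay above every saline library, and the rest overlapped. The log2 fold change was 0.06 (SE 0.061, 95% interval -0.065 to 0.19, edgeR adjusted p = 0.622). Without varenicline 6 it was 0.11 (SE 0.057). An antisense gene, Gm20387, shares 130 bases or 3.11% of the exon length of Grm7 in GENCODE vM21. The sources used here do not say whether counting was stranded, so its reads could be counted with Grm7.

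Grm8 (ENSMUSG00000024211, mm10 chromosome 6, 27275121 to 28134369, minus strand, 11 exons) encodes mGlu8, a presynaptic receptor with high affinity for glutamate. Its level was 8.46 CPM in the lowest, 12.8 CPM at the median and 20.2 CPM in the highest varenicline library, against 11.9, 15.7 and 16.3 CPM with saline. Both the highest and the lowest of the 12 libraries were varenicline libraries, varenicline 1 and varenicline 5. The coefficient of variation was 30.4% with varenicline and 11.1% with saline. The log2 fold change was -0.17 (SE 0.16, 95% interval -0.51 to 0.17, edgeR adjusted p = 0.624), and it was -0.31 without varenicline 1, -0.061 without varenicline 5 and -0.11 without varenicline 6. Varenicline 1 also had the highest septal marker score, 3.56, and varenicline 3, with a score of 3.47, had 13.7 CPM of Grm8. The part of the septal markers in the level of Grm8 was not tested. With the septal score as a covariate the log2 fold change of Grm8 was -0.45 (SE 0.18, unadjusted p = 0.0271, edgeR adjusted p = 0.638). In that fit 4.38% of all genes were lower at an unadjusted p under 0.05. Over all alternatives the adjusted p of Grm8 ran from 0.266 to 0.9999.

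**Figure D4:**
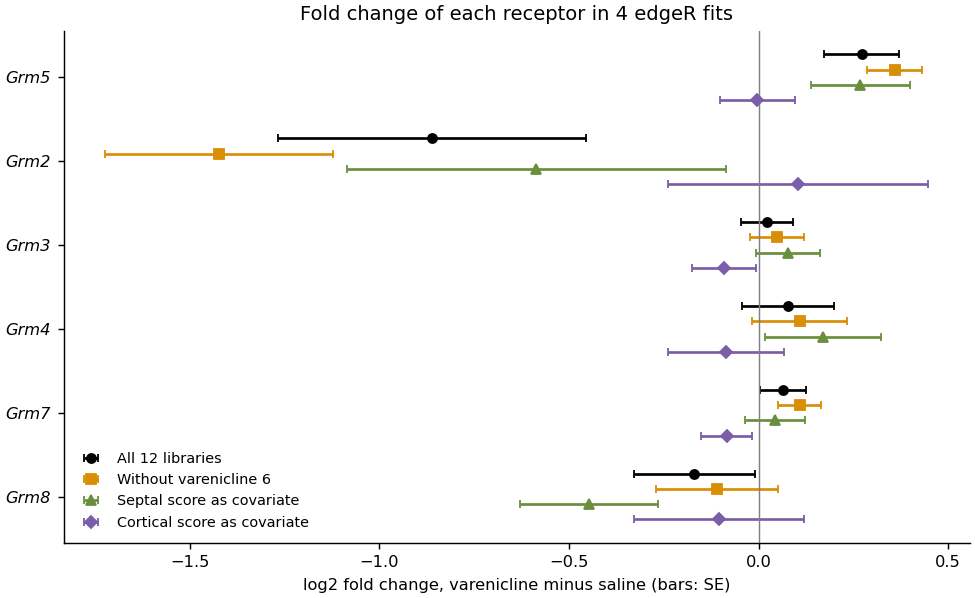
log2 fold change, varenicline minus saline, of each receptor gene in 4 edgeR fits, with bars of 1 SE. Without varenicline 6 Grm5 and Grm2 lie at 0.36 and -1.42, and in the cortical score fit they lie at -0.0034 and 0.10.

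Leaving out varenicline 6, edgeR called 2 of the 6 receptors, Grm5 on the higher and Grm2 on the lower side. It called 10.7% of all genes, 3.55% higher and 7.14% lower. Without that library the cortical scores of the groups did not overlap, at 2.80 to 4.38 with varenicline and 4.89 to 5.67 with saline. Treatment and cortical markers therefore cannot be told apart in that fit. Limma-voom with sample weights called Grm5 and Grm2, with log2 fold changes of 0.31 and -1.41. It called 13.9% of all genes, 4.82% higher and 9.04% lower. That fit kept all 12 libraries but weighted each by its own variability, so they did not count equally. Its Grm2 value lay near the -1.42 of edgeR without varenicline 6, against -0.86 in edgeR with all libraries. It is therefore not a separate line of support. After adding the cortical score as a covariate 0 of 6 passed, against 0.0792% of all genes, and 0 of 6 had an unadjusted p under 0.05 in that edgeR fit, against 4.71% of all genes.

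Grm6, best known from retinal bipolar cells, had 1 count in saline 1 and 0 in the other 11 libraries, below the limit of 3 counts, or 0.107 to 0.225 CPM, that counting error sets.

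Signalling partners of these receptors were described in 7 lists, and most of the listed genes with a small p were on the lower side with varenicline. In all, 84 genes were tested, and 35 were higher and 49 lower, with a median log2 fold change of -0.045 against 0.0074 over all genes tested. None passed the adjusted threshold in edgeR, and 5 did in DESeq2, where 3.10% of the genes given an adjusted p passed. At an unadjusted edgeR p under 0.05, 2 were higher and 22 lower, where 7.26% and 9.63% of all genes were. Without varenicline 6, edgeR called 1 higher and 19 lower, where it called 3.55% and 7.14% of all genes. Once the cortical score was included, 1 (Rgs2) had an unadjusted edgeR p under 0.05, where 4.71% of all genes did. The cortical score was 2.80 to 4.38 in the varenicline libraries other than varenicline 6, and 4.89 to 5.67 with saline. That covariate lies close to the group itself, so the fit cannot separate the cortical markers from the treatment. The part of the cortical markers in these lists was not tested.

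The Gi/o, cyclase and channel effectors of groups II and III had the lowest median. Of 15 genes 13 were lower and 8 of them had an unadjusted p under 0.05, with a median log2 fold change of -0.25, and of -0.037 in the cortical score fit. Gnaz, a G protein alpha subunit of the Gi family, averaged 35.2 ± 4.86 CPM with varenicline and 44.5 ± 3.70 CPM with saline (log2 fold change -0.34, edgeR adjusted p = 0.135). Cacna1a, the pore subunit of P/Q-type calcium channels, averaged 152 ± 15.2 CPM with varenicline and 181 ± 17.9 CPM with saline (log2 fold change -0.25). Adcy2, an adenylyl cyclase, averaged 84.5 ± 17.2 CPM with varenicline and 109 ± 13.2 CPM with saline (log2 fold change -0.37). With the cortical score as a covariate these 3 log2 fold changes were -0.16, -0.16 and -0.037.

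Of the 12 postsynaptic partners of mGlu5, 7 were higher and 5 lower, with a median log2 fold change of 0.016. The 4 of them with an unadjusted p under 0.05 were all lower, while Grm5 itself was on the higher side. The scaffold gene Dlgap1 averaged 185 ± 45.0 CPM with varenicline and 256 ± 38.8 CPM with saline (log2 fold change -0.46, edgeR adjusted p = 0.145). Shank1, which links Homer to the postsynaptic density, had 170 ± 95.5 CPM with varenicline and 270 ± 50.6 CPM with saline (log2 fold change -0.67). Cabp1, a calcium-binding protein, had a log2 fold change of -0.46. Without varenicline 6 these 3 were at -0.60, -1.03 and -0.70. In the cortical score fit they were at -0.11, -0.043 and -0.013. Of the Gq and calcium effectors 9 of 16 were higher and 7 lower, with 3 at an unadjusted p under 0.05, all lower, among them Trpc5, a cation channel (-0.35), and Gnaq, the Gq alpha subunit (-0.12). Among 5 genes of the endocannabinoid output of group I receptors, Mgll and Dagla, which break down and make 2-arachidonoylglycerol, had log2 fold changes of -0.19 and -0.24, and Daglb had -0.11. In the cortical score fit Mgll was at 0.014, its sign turned, and Dagla at -0.12. The single higher gene of that list, named after its value was seen, was the cannabinoid receptor gene Cnr1, at 0.22 (SE 0.14, edgeR adjusted p = 0.447) and at -0.14 in the cortical score fit.

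The 2 listed genes that were higher at an unadjusted edgeR p under 0.05, Ranbp2 and Rgs2, were in the remaining lists. Partners of groups II and III had 2 of 12 lower at an unadjusted p under 0.05, the synapsin gene Syn1 (-0.44) and the calmodulin gene Calm3 (-0.25), and 1 higher, Ranbp2 (0.15). In the list of kinases, arrestins and RGS proteins, Rgs2, a regulator that acts on Gq, averaged 112 ± 11.1 CPM with varenicline and 81.0 ± 8.49 CPM with saline. In log2 terms the difference was 0.46 (SE 0.077, edgeR adjusted p = 0.0679) and 0.45 with the cortical score. Adrbk1, the receptor kinase GRK2, had -0.33 and the arrestin gene Arrb2 -0.19. In the cortical score fit they were at 0.055 and -0.12, so the sign of Adrbk1 turned. Of 15 genes of glutamate release, uptake and NAAG handling, 10 were higher and 5 lower, with a median of 0.039. The single gene there at an unadjusted edgeR p under 0.05 was Slc17a6, the vesicular transporter VGLUT2 of thalamic neurons, with a log2 fold change of -0.78. It averaged 8.37 ± 4.27 CPM with varenicline and 14.5 ± 6.34 CPM with saline. Slc17a6 was also in a list of 5 thalamic markers, of which 4 were lower and 1 higher. Only Slc17a6 among them had an unadjusted edgeR p under 0.05. In the list of glutamate release, uptake and NAAG handling, Gls2, a glutaminase, had -0.22 and Rimkla, a NAAG synthase, 0.18. This list left out the vesicular glutamate transporter gene Slc17a7, which was placed among the cortical markers. Slc17a7 averaged 251 CPM with varenicline and 589 CPM with saline, a log2 fold change of -1.23. The median and the gene counts of the list do not include it.

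**Figure D5:**
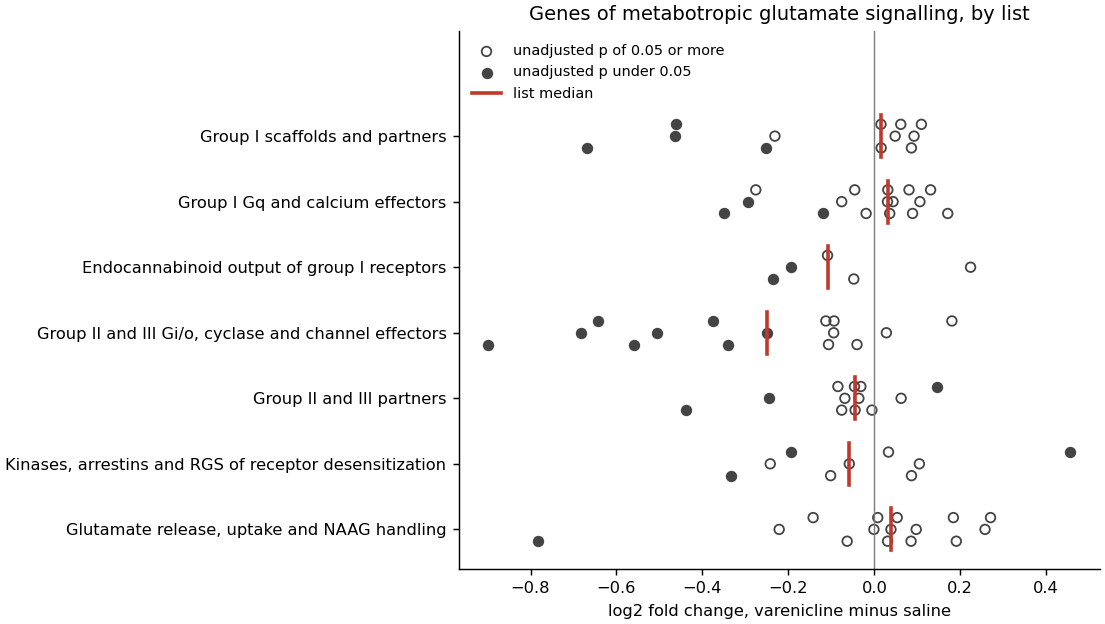
log2 fold change, varenicline minus saline, of the genes of 7 lists of metabotropic glutamate signalling in edgeR with all 12 libraries; each circle is a gene, filled where the unadjusted p is under 0.05, and red lines are list medians. The list of Gi/o, cyclase and channel effectors has its median at -0.25.

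The genes whose pattern over the 12 libraries was most like that of Grm5 were Fam120c, Galnt13, a glycosyltransferase gene, and Diap2, chosen among 14215 genes by Pearson's r of log2 CPM (0.98, 0.97 and 0.97; Spearman's rho 0.95, 0.92 and 0.93; r of 0.96, 0.97 and 0.96 without varenicline 6 and saline 5, the libraries farthest from the median). For Grm2, added after its values were seen, they were Tspan17, a tetraspanin gene, Bend6 and Lnx1, a ubiquitin ligase gene (0.99, 0.98 and 0.97; rho 0.99, 0.94 and 0.99; r of 0.98, 0.97 and 0.96 without saline 1 and varenicline 6). These coefficients are the highest of many, and the points are the same 12 libraries with the cortical marker difference between groups, so they are given as a description. Lnx1 averaged 14.0 CPM with varenicline and 21.2 CPM with saline, and Galnt13 averaged 62.5 CPM with varenicline and 49.9 CPM with saline.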

How the data were processed

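RNA of bilateral striatum was sequenced as single reads of 150 nt from Illumina TruSeq libraries, per the labels' protocols. The submitters' processing notes name mm10 and list Cuffnorm, Cuffdiff, DESeq2, featureCounts, TopHat2, FastQC and Trimmomatic, with no role or version. Annotation and strand use are not stated. The authors deposited whole-number counts per gene, not normalized, with the exon length. They also deposited FPKM values, and a signal of scaled counts per gene that the file name credits to Cuffnorm; both served as alternatives. Groups come from the treatment label, and replicate numbers follow accession order and pair nothing.

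TMM scaling was applied to the 15148 genes passing filterByExpr, and edgeR 4.0.16's quasi-likelihood F test was run, varenicline minus saline, with Benjamini-Hochberg adjustment over all of them and a threshold of 0.05. CPM values are TMM-scaled. Marker scores are means of log2 CPM with a prior count of 2. Alternatives were DESeq2 1.42.0, limma 3.58.1 (voom with sample weights, log2 of FPKM plus 1 or 0.1 for genes with a mean of at least 0.1, log2 of Cuffnorm values plus 1 for a mean of at least 10), other size factors and filters, marker scores as covariates, and each library left out. The fit with both scores was added after seeing the data. DESeq2 gave no adjusted p for 11926 genes. R was 4.3.3. The tests were checked on simulated data.

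Named genes are all members, up to 3 per signalling list with the smallest p, and the 3 genes most like Grm5 in pattern; Grm2 was given the same comparison after its values were seen. The members and lists were chosen with earlier results of these data known. At these depths 3 counts correspond to 0.107 to 0.225 CPM. That limit covers counting error only. Some genes of the lists and of the family are not reported here.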

Additional observations from a re-analysis of the deposited data

Results flagged for a closer look

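In log2 CPM, Grm2 in varenicline 6 was at 3.93, far from the other 5 varenicline libraries at 1.30 to 2.24. It was the only value flagged by Dixon's ratio for outliers (0.64) among 16 sets of 6 values (6 receptors and 2 marker scores in each group). Chance gives about 0.8 at 1 in 20. The same rule flagged varenicline 6 neither for Grm5 nor for a marker score. The cortical marker score of that library was 5.55, against 2.80 to 4.38 in the other varenicline libraries and 4.89 to 5.67 in the saline libraries. The part of the cortical markers in the Grm2 value was not tested.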

How the results depend on the processing

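No paired analysis was possible because the replicate numbers follow accession order and the labels link no varenicline library to a saline library. Genes called numbered 0 with all libraries in edgeR, 387 with DESeq2, 2099 with limma-voom and 12 with the cortical score, and 0 to 1628 when a library was left out, with 1628 without varenicline 6 and 4 without varenicline 2. Signalling genes called were 0 in edgeR and 5 with DESeq2, where 3.10% of the genes given an adjusted p were called. With limma-voom they were 27, where 13.9% of all genes were called. They were 0 to 20 with a library left out, the 20 without varenicline 6, where 10.7% of all genes were called. Receptors called were 0, 2 with limma-voom and 0 to 2 with a library left out, the 2 without varenicline 6. With limma-voom the log2 fold changes were 0.31 for Grm5 and -1.41 for Grm2, both past the threshold. Leaving out each library, they ran from 0.24 to 0.36 for Grm5, from -1.42 to -0.67 for Grm2, from -0.014 to 0.069 for Grm3, from 0.022 to 0.17 for Grm4, from 0.042 to 0.11 for Grm7 and from -0.31 to -0.061 for Grm8. Adding the cortical score turned the sign for Grm5 (-0.0034), Grm2 (0.10), Grm3 (-0.090), Grm4 (-0.085) and Grm7 (-0.084). With that covariate and without varenicline 6 it turned for Grm3 (-0.16), Grm4 (-0.22), Grm7 (-0.065) and Grm8 (0.31), but not for Grm5 (0.18) and Grm2 (-0.50). With both scores it turned for Grm2 (0.0071), Grm3 (-0.035) and Grm7 (-0.074). Grm3 also turned without saline 2 (-0.014) and without varenicline 2 (-0.0053). The cause was not tested. In the deposited FPKM the varenicline mean of Grm4 was 21.5, against 18.9 CPM per kilobase of exon. Of 237 alternative values 208 kept their direction and their side of the threshold, or moved by less than the spread. Depth limits Grm2 most, with as few as 41 counts in a library.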
